A study of Mus musculus with 30 samples.

Results

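The comparison set EMT6 tumours against tumours of 4 other mouse lines that also derive from BALB/c mice, so that the strain of origin was the same on both sides. EMT6 is a mammary carcinoma line, CT26 is a colon carcinoma line, CT26NYESO1 is CT26 carrying the human tumour antigen NY-ESO-1, CMS5a is a fibrosarcoma line and Renca is a renal carcinoma line. Each line had 3 libraries, which gave 15 of the 30 libraries of the series (5 of its 10 lines). Members were taken by line name alone: the 3 EMT6 libraries were compared with the equal-weight mean of the 4 other lines. The libraries were RNA-seq of cells from tumours grown under the skin of BALB/cJ or C57BL/6J mice, taken when a tumour reached 10 mm in length. Some mice had received OK-432, a killed streptococcal preparation that stimulates innate immune cells, inside the tumour for 24 hours. The labels tie neither the host strain nor the OK-432 treatment to a library, so each of the 15 libraries may come from a treated or an untreated tumour. They also do not say that the 3 libraries of a line came from separate mice, and the p-values below measure the spread between these libraries only. Every line is a single cell line, and a difference between lines combines tissue of origin with whatever is particular to each line.

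EMT6 is one of the standard transplantable mammary tumours of the BALB/c mouse. Its cells are carcinoma cells with a spindle, partly mesenchymal shape, and its tumours are widely used as a model of immune exclusion and of transforming growth factor beta activity. A solid tumour of this kind holds carcinoma cells, fibroblasts, vessels and leukocytes. Among the leukocytes, neutrophils are drawn in by CXC chemokines that bind the receptor CXCR2, and are kept alive by granulocyte colony-stimulating factor. Low oxygen in a tumour stabilises the HIF transcription factors, which switch on glucose uptake, glycolysis, acid export and angiogenic factors.

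The labels call the source CD45+ tumour-infiltrating cells, and the markers did not bear this out as a pure population. The preparation named in the labels is a digest to single cells followed by RNA extraction, with no sorting step. Ptprc, which encodes CD45, stood at 35.4, 69.2 and 53.9 TPM in the EMT6 libraries and at 9.28 to 56.3 TPM in the other 12 (TPM is a level per length of transcript, scaled to the same total in each library). In the same EMT6 libraries the epithelial keratin Krt8 stood at 568, 621 and 640 TPM and the fibrillar collagen Col1a2 at 1166, 866 and 961 TPM. Which cells carried Col1a2 was not tested, but transcripts of cells other than leukocytes were thus abundant. All levels are therefore read as those of a mixed tumour digest, and in such bulk samples fewer cells of a type and less RNA per cell cannot be told apart. The summed level of 10 general leukocyte genes was 1030 to 1390 TPM in EMT6 and 585 to 993 TPM in the other 12 libraries. Mitochondrial transcripts took 9.17% to 12% of TPM in EMT6 and 11.0% to 27.1% in the others. The leukocyte difference was entered in an alternative fit as a score, the mean log2(TPM + 1) of the 10 general leukocyte genes, Ptprc among them. The score was 6.13 to 6.58 in EMT6 and 5.02 to 6.12 in the other 12 libraries, without overlap. That fit thus extrapolates from the spread within lines, and calls kept or lost with it are descriptions. The part of the mitochondrial share in the results was not tested. EMT6 replicate 1 stood apart from the other two EMT6 libraries in lymphocyte, MHC class II and mast cell genes: Cd74 was at 47.7 TPM there against 579 and 508, Cd3e at 0.123 TPM against 2.37 and 2.14, and Cpa3 at 0.739 TPM against 25.2 and 8.29. Many results that rest on this library are given with and without it. Depth is unknown, because TPM values keep no read totals. Between 13399 and 14480 genes reached 1 TPM in a library, and the lowest correlation between libraries of one line (across genes, log2 scale) was 0.981, in Renca.

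Of 55291 gene symbols, 16345 had at least 1 TPM in 3 or more of the 15 libraries and were tested with limma on log2(TPM + 1). A gene was called when its Benjamini-Hochberg adjusted p was below 0.05 and its log2 fold change was at least 1 in size. Log2 fold changes are differences on the log2(TPM + 1) scale, which understates the change of genes with low levels. In this comparison 1500 genes were higher in EMT6 (9.18% of those tested) and 1025 were lower (6.27%). Counted without a test, 1560 genes (9.54%) had all 3 EMT6 libraries above all 12 others and 825 (5.05%) had all 3 below. Called genes that also did not overlap numbered 970 higher (5.93%) and 388 lower (2.37%). The median log2 fold change over all genes was 0.01. These percentages are the background against which the counts of each gene group are read. Csf3, Dsp, Spint1, Bmp4, Rspo2, Arhgap8, Ephx2, Sema3e, Wnt11, Wnt5b and Stfa2 were below 1 TPM in all 12 other libraries. Serinc2 and Krt19 reached 1 TPM there in fewer than the 3 libraries needed. These genes entered the test only through the EMT6 libraries. A gene chosen in this way had to differ, so the values of these genes are descriptions and no test is given for them. Counts of called list members still include them. The calls treat libraries as the unit. With the 5 line means as units, limma called 0 genes (smallest adjusted p 0.0524), while 714 higher and 177 lower genes had an unadjusted p under 0.05. With the leukocyte score as covariate, which did not overlap between EMT6 and the others, 1158 genes were higher (7.08%) and 1765 lower (10.8%). With median-ratio scaling they were 8.22% and 6.83%.

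**Figure D1:**
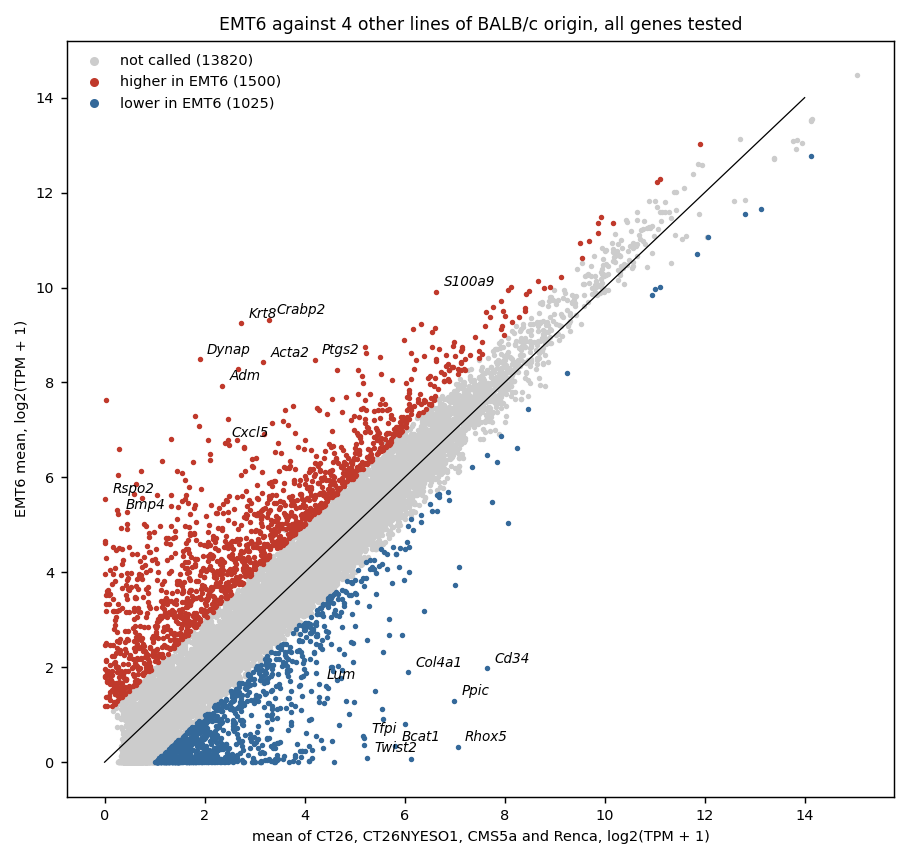
Mean log2(TPM + 1) of EMT6 (vertical axis) against the mean of the 4 other lines (horizontal axis), 1 point per gene for the 16345 genes tested. The 1500 genes called higher lie above the diagonal line of equal level and the 1025 called lower lie below it. Named genes such as Crabp2, Acta2 and Ptgs2 sit far above the diagonal, and Rhox5, Cd34 and Col4a1 sit far below it.

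Against single lines, from the same fit, the numbers of called genes were 1608 higher (9.84%) and 1331 lower (8.14%) than in CT26, and 1751 higher (10.7%) and 1143 lower (6.99%) than in CT26NYESO1. They were 1718 higher (10.5%) and 1614 lower (9.87%) than in CMS5a, and 2843 higher (17.4%) and 2176 lower (13.3%) than in Renca. For Renca, rescaling the libraries by median ratios moved the median log2 fold change by -0.22 and the share of calls that were higher from 56.6% to 44.4%. These 4 comparisons share the EMT6 libraries and are not independent.

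Neutrophil genes were higher in EMT6. Of 27 listed effector genes of mature neutrophils, 21 were tested, 16 were called higher in EMT6 and 0 lower, with a median log2 fold change of 1.93 beside the 9.18% called higher over all genes. In 13 of the 21, all 3 EMT6 libraries lay above all 12 others. Stfa2, counted among the 16 and the 13, entered the test only through EMT6. Its mean was 8.53 TPM there and 0.146 to 0.292 TPM in the other lines, so its difference is a description. The summed level of the list was 1470 to 2080 TPM in EMT6 and 109 to 398 TPM elsewhere. The alarmin S100a9, a calcium-binding protein stored in large amounts in the neutrophil cytosol, stood at 861, 1201 and 866 TPM in EMT6. The other 12 libraries held 37.2 to 193 TPM, with a median of 108. Every EMT6 library was thus above every other library, and the log2 fold change was 3.28 (SE 0.28, limma adjusted p = 2.3e-07). Its partner S100a8 was at 267, 351 and 302 TPM against at most 72.4 TPM elsewhere (log2 fold change 3.19, SE 0.23). The stefin Stfa2l1, a cysteine protease inhibitor of neutrophils, was at 34.9, 45.9 and 30.1 TPM against at most 4.53 TPM (log2 fold change 3.51, SE 0.29); reads of stefin genes may be split among near-identical copies. G0s2 and Trem1, a lipase inhibitor and an activating receptor that are abundant in neutrophils, had the other large differences, with log2 fold changes of 3.78 (SE 0.32) and 3.07 (SE 0.14).

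Receptors of neutrophils were higher too. Cxcr2, the receptor for the CXC chemokines described next, stood at 12.5, 25.0 and 18.3 TPM in EMT6, and the other lines ranged from 0.850 to 8.55 TPM, with CMS5a nearest at 8.40 ± 0.195 TPM (SD, n = 3). Csf3r, the receptor for granulocyte colony-stimulating factor, was at 28.2, 52.6 and 35.1 TPM against 6.30 to 22.5 TPM, and its log2 fold change of 1.53 (SE 0.23, limma adjusted p = 6.5e-05) was a call against CT26, CT26NYESO1 and Renca but not against CMS5a alone. The decoy receptor Il1r2 and the histamine-forming enzyme Hdc were higher than in each of the 4 lines, with log2 fold changes of 2.11 and 2.63. Granule genes made during neutrophil development did not share this. Elane and Mpo were at or near 0 in EMT6 (at most 0.0589 TPM), and Ngp, Camp and Ltf stayed below the level needed for a test. Prtn3 was at 0.472, 0.224 and 0.569 TPM in EMT6 and at 9.76 ± 4.05 TPM (SD, n = 3) in Renca. Lcn2, Cd177, Padi4, Stfa3 and Retnlg were tested and not called. Lcn2 differed by -0.02, and Renca, a renal line, held 86.5 ± 16.7 TPM of it (SD, n = 3). With the leukocyte score as covariate, 12 of the 21 effector genes were still called higher.

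Chemokines that attract neutrophils were higher as a group: 4 of the 5 tested genes were called higher and 0 lower, with a median log2 fold change of 2.17. Cxcl1, Cxcl2, Cxcl3 and Cxcl5 bind CXCR2, and they lie close together on chromosome 5 of mm10, from Cxcl5 at chr5:90759360-90761624 to Cxcl2 at chr5:90903871-90905938 (GENCODE M21). Cxcl2 stood at 114, 121 and 93.2 TPM in EMT6 against 0.716 to 11.4 TPM in the other 12 libraries (median 7.82), a log2 fold change of 4.31 (SE 0.26, limma adjusted p = 5.7e-09). Cxcl5 was at 79.8, 121 and 120 TPM against 1.31 to 11.4 TPM (median 4.63), a log2 fold change of 4.33 (SE 0.23). For both genes the lowest EMT6 library was far above the highest of the others. Cxcl1 was at 48.4, 79.1 and 61.0 TPM against 7.89 to 34.4 TPM (log2 fold change 1.94, SE 0.26), again without overlap. Cxcl3 was at 47.5, 31.2 and 23.2 TPM, and here a CMS5a library with 26.4 TPM lay above the lowest EMT6 library (log2 fold change 2.17, SE 0.22). Ppbp, in the same cluster, was at 8.30, 1.55 and 1.15 TPM and was not called.

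The upstream windows of 3 of these chemokine genes are shown because a sequence of the type bound by NF-kB factors lies near the start of each. The windows are from RefSeq on GRCm38.p6 and read 5′ to 3′ on the gene's own strand. Capitals mark, on either strand, GGG followed by any 2 letters and TTTCC. Cxcl1 is chr5:90891135-90891244, Cxcl2 is chr5:90903789-90903898 and Cxcl3 is chr5:90785991-90786100, all on the plus strand.
Cxcl1: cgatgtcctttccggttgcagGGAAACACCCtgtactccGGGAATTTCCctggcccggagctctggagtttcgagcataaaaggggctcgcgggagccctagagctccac
Cxcl2: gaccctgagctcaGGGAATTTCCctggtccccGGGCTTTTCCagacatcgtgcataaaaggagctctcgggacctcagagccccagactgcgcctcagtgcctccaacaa
Cxcl3: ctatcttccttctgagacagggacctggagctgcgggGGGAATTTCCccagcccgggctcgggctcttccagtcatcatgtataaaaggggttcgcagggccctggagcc
The same 10 letters, GGGAATTTCC, occurred in all 3 windows, beginning 71, 97 and 73 bases before the start of Cxcl1, Cxcl2 and Cxcl3. A match to this pattern within 250 bases upstream was found in 3 of the 5 listed chemokine genes with a window and in 1.65% of 27025 genes. Cxcl5 was not among the 5, because no window was available for it. Such a match describes the letters and does not show that a factor was bound.

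Among 21 other chemokines tested, 5 were called higher and 6 lower. Ccl3 and Ccl4, which are made by activated myeloid cells, were higher: Ccl3 stood at 48.6, 55.3 and 50.7 TPM against 2.95 to 11.3 TPM (log2 fold change 2.89, SE 0.17), and Ccl4 at 27.4, 44.8 and 37.9 TPM against 3.56 to 16.4 TPM (2.15, SE 0.25). Neither overlapped the other lines. Cx3cl1, the ligand of a receptor on monocytes and NK cells, was higher on average (3.05, SE 0.20), but CMS5a held 35.6 ± 3.46 TPM (SD, n = 3) and overlapped the EMT6 values of 47.0, 37.4 and 35.6 TPM. Cxcl14 (2.03) and Cxcl16 (1.46) were also called higher. The stromal chemokine Cxcl12, which retains leukocytes through CXCR4, was lower: it stood at 0.294, 0.486 and 0.640 TPM in EMT6 and at 1.33 to 7.31 TPM elsewhere (-1.63, SE 0.22). Ccl17 and Ccl22, ligands of CCR4 on regulatory T cells, were lower by -1.41 and -1.09 and the difference was largest against Renca. The monocyte chemokine Ccl2 was at 96.5, 78.2 and 77.1 TPM, inside the range of 39.0 to 195 TPM of the others, and was not called. The interferon-gamma chemokines Cxcl9 and Cxcl10 were not called either (-0.17 and 0.10); Cxcl9 was at 0.919 TPM in EMT6 replicate 1 and at 13.8 and 18.6 TPM in the other two.

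The growth factor Csf3, which drives neutrophil production in the marrow, was low in absolute terms in EMT6 and near 0 elsewhere. It stood at 2.09, 4.41 and 3.21 TPM in EMT6 and at no more than 0.166 TPM in any other library (log2 fold change 1.93). Csf1, the macrophage growth factor, was at 199, 209 and 214 TPM against 64.5 to 220 TPM and was not called (0.95). Csf2 was not called (-0.12). The receptors Csf1r, Csf2ra and Csf2rb were called at log2 fold changes of 1.02, 1.02 and 1.01, just past the threshold. All 3 calls were lost with median-ratio scaling (0.94, 0.93 and 0.93) and with the leukocyte covariate, where the log2 fold changes were 0.30, 0.01 and 0.08. The count was unstable: 2, 0 and 3 of the 10 genes were called without EMT6 replicate 1, 2 and 3, and 2 without CT26 or without CT26NYESO1. Csf3 was not tested when an EMT6 library was left out.

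Cytokines of the interleukin-1 and interleukin-6 families were higher in EMT6 in 11 of 18 tested genes and lower in 0, with a median log2 fold change of 1.76. Il1b, the secreted alarm cytokine of myeloid cells, was at 238, 354 and 280 TPM in EMT6 and at 20.1 to 83.4 TPM in the others (median 53.2). Its natural antagonist Il1rn was at 58.1, 81.3 and 80.7 TPM against 6.25 to 22.5 TPM. Neither gene overlapped, and the log2 fold changes were 2.64 (SE 0.19) and 2.52 (SE 0.20). Il33, an alarmin released by damaged epithelial and stromal cells, stood at 57.1, 30.9 and 36.7 TPM against 0.524 to 8.56 TPM (3.57, SE 0.20, limma adjusted p = 2.4e-09). Its receptor Il1rl1 was at 511, 513 and 573 TPM, and CMS5a came nearest at 367 ± 62.4 TPM (SD, n = 3; log2 fold change 2.51 against the mean of the 4 lines). In the interleukin-6 family the oncostatin M receptor Osmr was at 42.1, 37.1 and 45.5 TPM against at most 18.2 TPM (2.56, SE 0.20). Oncostatin M itself, Osm, was at 14, 20.8 and 15.7 TPM against at most 6.28 TPM (2.32, SE 0.17). Lif, Clcf1 and Il18 were higher than in each of the 4 lines (2.26, 1.40 and 2.12). Il6 was at 0.719, 1.03 and 0.821 TPM, within the range of the others, and was not called (0.22). Il1r1 (-0.35), Il1rap (0.94) and Il1a (0.82) were not called.

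Prostaglandin synthesis was higher at its inducible steps. Ptgs2, the inducible cyclooxygenase, stood at 280, 390 and 411 TPM in EMT6 and at 0.312 to 98.8 TPM in the other libraries (median 29.1), a log2 fold change of 4.28 (SE 0.22, limma adjusted p = 9.8e-10). The next enzyme toward prostaglandin E2, Ptges, was at 176, 176 and 173 TPM against 2.41 to 122 TPM (2.29, SE 0.13). Both genes were above every other library, although for Ptges the differences from CT26 and CT26NYESO1 alone were not called. The phospholipase Pla2g4a (1.65), the receptor Ptger4 (1.92) and the transporter Slco2a1 (1.77, with Renca higher still at 90.5 ± 20.8 TPM) completed the 5 called higher of 18 tested. The 3 called lower were the prostaglandin D synthase Ptgds, the prostacyclin synthase Ptgis and the receptor Ptger3, with log2 fold changes of -1.82, -1.04 and -1.86; the last came from Renca alone, at 199 ± 8.51 TPM (SD, n = 3). The constitutive cyclooxygenase Ptgs1 was not called (-0.12).

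A further list held mediators by which myeloid cells restrain lymphocytes and other myeloid genes, such as the lectins Clec4d and Clec4e. Of its 13 tested genes 7 were called higher and 0 lower (median 1.08), and 5 were called higher with the leukocyte covariate. Arg1, which depletes arginine, was at 356, 317 and 254 TPM in EMT6. Among the other lines CT26 held 121 ± 37.1 TPM and CT26NYESO1 95.8 ± 53.3 TPM, while CMS5a and Renca held 7.01 ± 3.23 and 4.64 ± 3.08 TPM (SD, n = 3 each). The highest of the 12 was 155 TPM, below every EMT6 library, and the log2 fold change was 3.62 (SE 0.37, limma adjusted p = 1.8e-06). Acod1, which makes itaconate, was at 18.9, 58.0 and 46.7 TPM against at most 13.8 TPM (3.03, SE 0.38). The C-type lectins Clec4d and Clec4e, found on neutrophils and inflammatory monocytes, were higher by 3.13 and 2.92. Nos2 was called higher (2.36) and lost the call with the leukocyte covariate (0.79). Cd274, which encodes PD-L1, was at 15, 49.6 and 42.0 TPM and was not called (0.72), nor were Tgfb1 (-0.07) and Ido1 (-0.23). The NF-kB feedback genes Nfkbia, Tnfaip3 and Zc3h12a, the target Nfkbiz and the cytokine Tnf gave 5 calls higher of 13 tested, with log2 fold changes of 1.14 to 1.68. With the leukocyte covariate 0 of the 13 were called. Against CT26 alone 2 were called higher and 1 lower, and against CT26NYESO1 3 and 1. The counts were 8 and 0 against CMS5a and 7 and 0 against Renca. The summed level of the 13 was 442 to 544 TPM in EMT6, 443 to 596 TPM in CT26 and 455 to 545 TPM in CT26NYESO1. It was 225 to 288 TPM in CMS5a and 179 to 258 TPM in Renca.

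**Figure D2:**
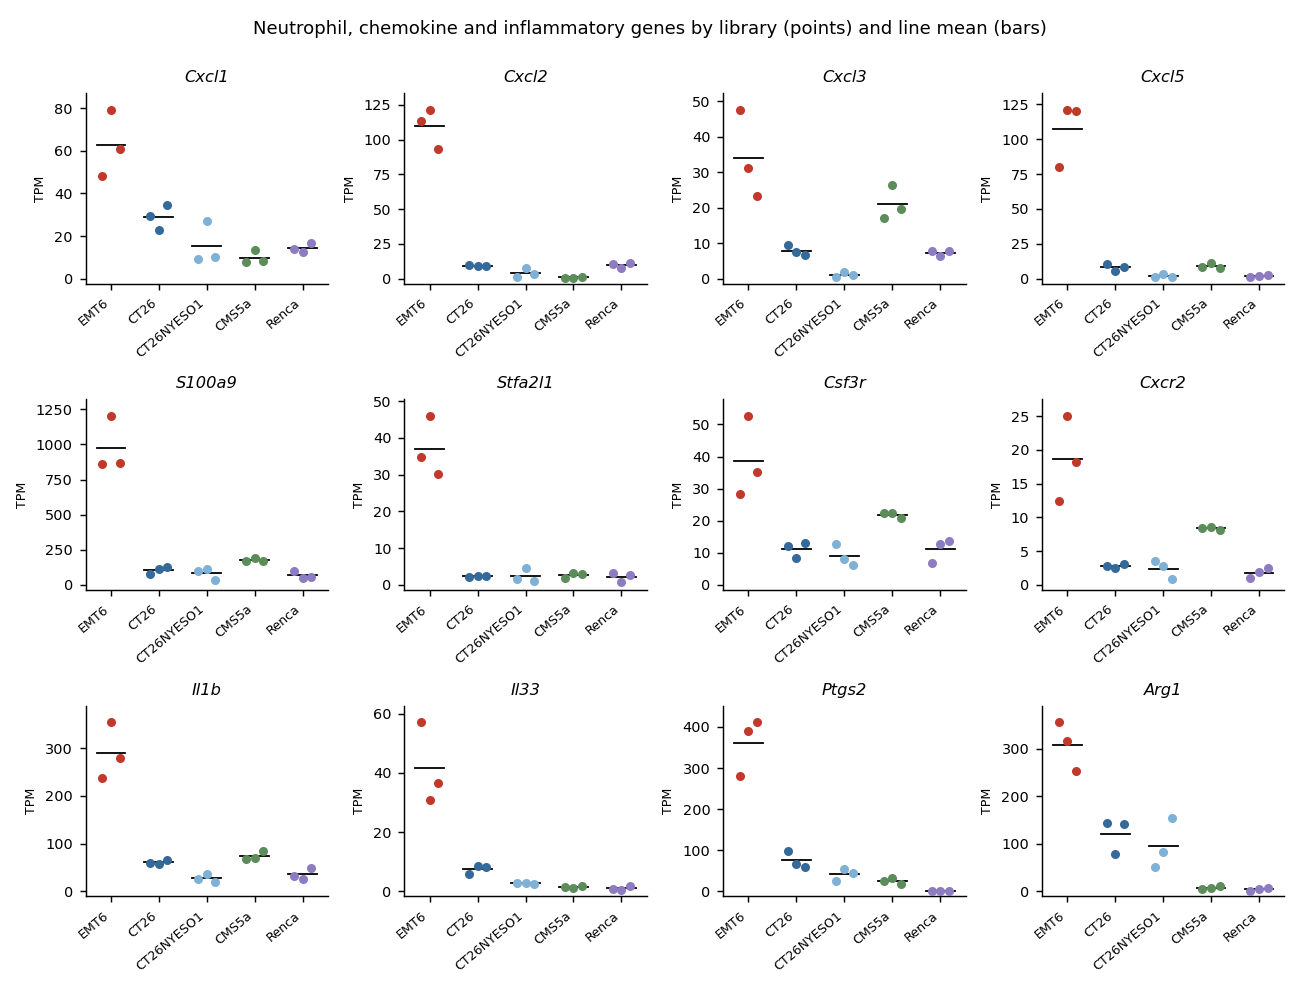
TPM (vertical axes, linear and starting near 0) of 12 genes in each of the 15 libraries, with 3 points per line and a bar at the line mean. EMT6, the leftmost line in each panel, holds the highest mean. Cxcl3 overlaps CMS5a, and Arg1 is at 121 TPM on average in CT26 and 95.8 TPM in CT26NYESO1.

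Hypoxia and glycolysis genes were higher in 21 of 31 tested members and lower in 0, and all 31 had a log2 fold change above 0 (median 1.35). In 15 of them the 3 EMT6 libraries lay above all 12 others. The largest difference was in Adm, which encodes the vasodilator adrenomedullin: 283, 250 and 202 TPM in EMT6 against 1.54 to 22.6 TPM elsewhere (log2 fold change 5.58, SE 0.12, limma adjusted p = 2.2e-13). Renca held the upper end of that range, at 21.5 ± 1.16 TPM (SD, n = 3). Egln3, an oxygen-sensing prolyl hydroxylase that is itself a HIF target, was at 86.5, 82.1 and 68.5 TPM against 0.789 to 5.94 TPM (4.55, SE 0.20). The carbonic anhydrase Car9, a widely used hypoxia marker at the cell surface, was at 69.5, 77.0 and 76.7 TPM. CT26NYESO1 followed with 26.2 ± 7.60 TPM and CT26 with 22.1 ± 22.5 TPM, where 1 library reached 48.0 TPM, and CMS5a and Renca held 2.35 ± 0.233 and 1.33 ± 0.165 TPM (SD, n = 3 each). The related Car12 was at 57.9, 77.4 and 73.4 TPM and overlapped Renca (42.0 ± 21.3 TPM). The lactate exporter Slc16a3 was at 186, 219 and 193 TPM against 6.00 to 57.3 TPM (3.10, SE 0.23).

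The glucose transporter Slc2a1 was at 377, 425 and 330 TPM against 30.5 to 203 TPM (2.18, SE 0.21), and Vegfa, the main angiogenic factor of hypoxic tissue, was at 243, 317 and 265 TPM against 57.5 to 162 TPM (1.62, SE 0.19). Among enzymes of glycolysis, Aldoc (3.31, with means of 65.1 TPM in EMT6 and 39.3 TPM in Renca), Pgam1 (1.46), Pgk1 (1.42), Aldoa (1.29) and Gapdh (1.18) were called, and Tpi1 (0.90), Pkm (0.94), Gpi1 (0.80), Ldha (0.67) and Eno1 (0.04) were not. Much of this list set EMT6 apart from CMS5a, where 29 of 31 genes were called higher, against 14 for CT26, 18 for CT26NYESO1 and 14 for Renca. Renca held higher levels than EMT6 of Ndrg1 (1143 ± 43.4 TPM against 388, 330 and 315), Ero1l and P4ha2, which were the 3 genes called lower against Renca alone. With CMS5a left out 16 of the 31 genes were still called, and with the leukocyte covariate 17.

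Core hypoxia letters are shown for 4 members as examples of a motif that lies within 60 bases of the start; Hk2, Pfkfb3, Ldha, P4ha1 and Mxi1 also had it there. The capitals mark ACGTG, the core letters of the hypoxia response element, on either strand; windows are RefSeq on GRCm38.p6, read along the gene. Car9 is chr4:43506966-43507025 (plus strand), Slc16a3 is chr11:120949007-120949066 (plus strand), Slc2a1 is chr4:119108685-119108744 (plus strand) and Ankrd37 is chr8:45999851-45999910 (minus strand).
Car9: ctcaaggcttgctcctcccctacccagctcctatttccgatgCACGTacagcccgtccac
Slc16a3: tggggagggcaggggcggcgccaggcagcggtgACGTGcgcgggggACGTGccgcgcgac
Slc2a1: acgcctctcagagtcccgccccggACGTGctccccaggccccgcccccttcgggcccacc
Ankrd37: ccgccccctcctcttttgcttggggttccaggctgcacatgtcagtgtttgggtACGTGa
Within 250 bases upstream, ACGTG on either strand was found in 19 of the 29 listed hypoxia genes with a window (65.5%), against 18.5% of 27025 genes. It was present in 15 of the 20 members called higher and in 4 of the 9 not called. The share is a feature of the list, which was drawn up from known targets, and is given as a description.

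Heat shock genes were unevenly higher: 5 of 13 tested were called higher and 0 lower (median 0.65). The inducible chaperones Hspa1b and Hspa1a, which refold proteins after stress, stood at 113, 204 and 121 TPM and at 38.6, 60.7 and 36.4 TPM in EMT6. The other libraries held 1.02 to 30 and 0.908 to 11.7 TPM, without overlap, and the log2 fold changes were 3.81 (SE 0.22) and 3.05 (SE 0.22). The small chaperone Hspb1 was at 114, 111 and 106 TPM, near 1 TPM in CT26, CT26NYESO1 and CMS5a, and at 237 ± 44.3 TPM in Renca, the other line with much Krt8. Cryab had the same order (1.76). Dnajb1 was called at 1.03 and lost the call without EMT6 replicate 1 or Renca, with median-ratio scaling and with the leukocyte covariate. The constitutive Hspa8 (0.65), Hsp90aa1 (0.65) and the mitochondrial Hspd1 (-0.37) were not called. The inducible pair are near-identical neighbours on chromosome 17, so their reads may be split between them. Their upstream windows, Hspa1a at chr17:34972157-34972276 and Hspa1b at chr17:34959239-34959358 (both on the minus strand, RefSeq on GRCm38.p6), are shown to make the copy visible. They were equal in 119 of 120 bases, and capitals mark the heat shock type sequence GAANNTTC, which reads as the same motif on both strands.
Hspa1a: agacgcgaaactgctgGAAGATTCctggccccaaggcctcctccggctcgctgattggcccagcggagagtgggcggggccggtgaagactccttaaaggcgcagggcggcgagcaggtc
Hspa1b: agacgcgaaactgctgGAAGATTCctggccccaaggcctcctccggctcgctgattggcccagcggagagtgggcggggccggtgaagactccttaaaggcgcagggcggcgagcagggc
GAANNTTC occurred within 250 bases upstream of 6 of 9 listed chaperone genes with a window and of 7.73% of 27025 genes. It was present in 3 of the 4 members called higher and in 3 of the 5 not called. As for the hypoxia list, the share is a feature of a list of known genes and is given as a description.

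Immediate early genes, which are switched on within minutes of a stimulus, were called higher in 9 of 21 tested and lower in 1 (median 0.92). Against CT26 alone 4 were called higher and 2 lower (median 0.26), and against CT26NYESO1 10 and 1. The counts were 11 and 0 against CMS5a and 13 and 2 against Renca. Against the mean, 6 were called higher without Renca, 13 without CT26 and 6 with the leukocyte covariate. Ier3 was at 448, 591 and 407 TPM against 34.9 to 128 TPM (2.92, SE 0.21), and Fos at 70.4, 109 and 61.6 TPM against 13.4 to 37.3 TPM (2.0, SE 0.19). Junb (1.52), Atf3 (1.67), Dusp1 (1.72) and Klf6 (1.10) were called higher, with Atf3 higher still in Renca (77.3 ± 8.06 TPM, SD, n = 3). Egr1 (0.80), Jun (0.92), Klf4 (0.07) and Myc (0.09) were not called, and Nr4a2 was lower (-1.36).

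Targets of NRF2, the transcription factor that answers oxidative stress, were called higher in 4 of 9 tested and lower in 0, and all 9 had log2 fold changes above 0 (median 0.91). Nqo1, a quinone reductase, stood at 90.5, 99.6 and 104 TPM against 0.544 to 36.2 TPM (3.85, SE 0.15, limma adjusted p = 5.3e-11). The haem-degrading Hmox1 was at 742, 573 and 420 TPM against 45.8 to 178 TPM (2.54, SE 0.30). Txnrd1 (1.52) and G6pdx (1.30) were called and did not pass with the leukocyte covariate. Gclm (0.91), Srxn1 (0.72) and Gclc (0.54) were not called. Of 21 genes of the integrated stress and unfolded protein responses only Slc7a11 (2.0) and Ddit4 (1.20) were called higher, and the asparagine synthetase Asns was lower (-1.16); it stood at 64.0, 92.3 and 117 TPM against 138 to 265 TPM, and without EMT6 replicate 1 or with the leukocyte covariate it was no longer called. Ddit4 was no longer called with CT26 or CT26NYESO1 left out or with that covariate.

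**Figure D3:**
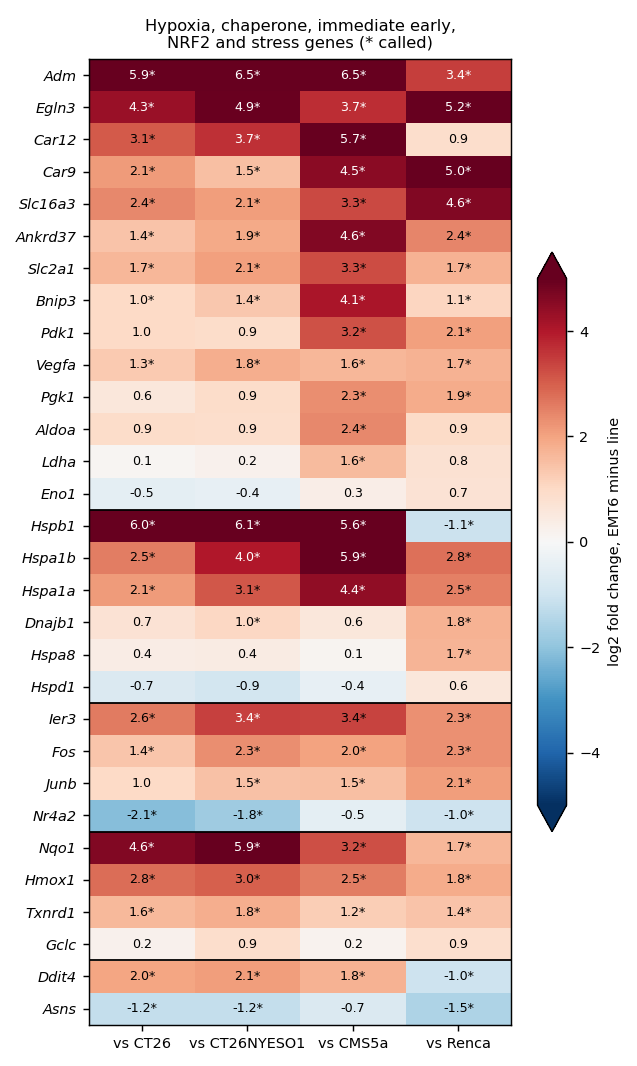
Log2 fold change of EMT6 minus each of the 4 lines (columns) for 30 hypoxia, chaperone, immediate early, NRF2 and stress genes (rows, grouped by black lines); red is higher and blue lower in EMT6, colour stops at 5 in size, and an asterisk marks a call. Adm, Egln3 and Nqo1 are called against all 4 lines, while Hspb1 and Ddit4 turn negative against Renca.

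The epithelial side of EMT6 was partial. Krt8, the type II keratin of simple epithelia, stood at 568, 621 and 640 TPM in EMT6, at 926 ± 219 TPM in Renca (SD, n = 3), and below 1 TPM in CT26, CT26NYESO1 and CMS5a, although CT26 is a colon carcinoma. Its log2 fold change of 6.52 against the mean of the 4 lines was thus a difference from 3 of them, and the difference from Renca was not called. Its pairing partner Krt18 was at 43.8, 56.1 and 64.8 TPM, lower than in Renca (576 ± 176 TPM), and with CMS5a left out it was no longer called (0.47). Krt7 (1.34) was called higher at a level of a few TPM. Krt19 (1.38), also at a few TPM, entered the test only through EMT6, so its difference is a description. Krt20, a keratin of intestinal epithelium, was at or near 0 in EMT6 (at most 0.073 TPM) and at 124 ± 10.7 TPM in CT26. The basal keratin Krt14 was at 1.82, 3.83 and 3.07 TPM and lost its call (1.03) without EMT6 replicate 2 or 3, CT26NYESO1 or CMS5a. Krt5 was not called (-0.45).

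Adhesion genes of epithelia divided in the same way. Of 28 listed genes 19 were tested, 4 were called higher and 5 lower, and with Renca left out the counts were 9 and 2. The desmosomal plaque gene Dsp was at 11.6, 12.1 and 10.3 TPM in EMT6 and at no more than 0.136 TPM in any other library, Renca included (log2 fold change 3.55). Spint1, an inhibitor of membrane serine proteases, was at 11.6, 12.7 and 10.8 TPM against at most 0.511 TPM (3.32). Dsp and Spint1 were above all 12 other libraries. They are in the count of 4 but entered the test only through EMT6, so their differences are descriptions. Pkp3 (1.63) was called higher. The junction genes Cdh1 and Epcam stood at 4.31, 5.46 and 3.0 TPM and at 1.85, 1.61 and 1.83 TPM, above CT26, CT26NYESO1 and CMS5a and far below Renca (67.3 ± 10.4 and 9.97 ± 0.208 TPM). The claudins Cldn3 and Cldn4 were at or near 0 in EMT6 and lower on average (-2.03 and -1.83), a call against Renca alone, which held 277 ± 58.1 and 147 ± 14.5 TPM. The epithelial splicing and identity factors Esrp1 and Grhl2 were at most 0.0175 TPM in EMT6. The integrins Itga6 and Itgb4 were lower (-1.16 and -1.30), with the highest levels in CT26.

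Markers that define mammary epithelium were mostly absent. Of 17 listed genes 10 did not reach the level for a test, among them the progesterone receptor Pgr, the alveolar factor Elf5 and the milk genes Csn2 and Wap, which were at most 0.0684 TPM in EMT6. Of the 7 tested, 1 was called higher and 4 lower. The transcription factor Tfap2a was at 22.4, 21.6 and 19.4 TPM against 0 to 15.2 TPM (2.19, SE 0.16). The luminal factors Gata3 and Foxa1 were at most 0.498 and 0.258 TPM in EMT6 and were called lower (-1.37 and -1.53); Gata3 lost its call without Renca, and Foxa1 without CT26 or without CT26NYESO1. The oestrogen receptor Esr1 was at 10.6, 8.74 and 10.0 TPM, inside the range of the others, and was not called (0.92). Erbb2 was not called (-0.14), and Erbb3 was lower (-1.20), a call lost without Renca. The milk genes and the luminal factors Gata3, Foxa1 and Elf5 were thus at 0.498 TPM or less in every EMT6 library, while Tfap2a and Esr1 were present.

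Ligands of the epidermal growth factor receptor differed in both directions. Areg, or amphiregulin, stood at 58.8, 60.1 and 61.7 TPM in EMT6 against 0.129 to 18.6 TPM elsewhere (4.33, SE 0.20, limma adjusted p = 2.8e-10). The related epiregulin, Ereg, was at most 0.131 TPM in EMT6, and it stood at 87.7 ± 9.47 TPM in CT26, 50.9 ± 11.7 TPM in CT26NYESO1 and 10.8 ± 2.13 TPM in CMS5a (-3.81, SE 0.15). The neuregulin Nrg1, a ligand of ERBB3, was at 0.414, 0.252 and 0.266 TPM against 3.87 to 31.1 TPM (-3.45, SE 0.17). The receptor Egfr was at 10.0, 7.34 and 6.77 TPM, above the highest other library at 4.92 TPM (1.87, SE 0.17). Btc and Hbegf were not called. Over the list 3 of 8 tested were called higher and 2 lower.

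Contractile genes were higher in 7 of 13 tested and lower in 3. Acta2, the smooth muscle actin of myofibroblasts and of myoepithelium, stood at 406, 275 and 360 TPM in EMT6. Levels elsewhere were 3.15 ± 1.74 TPM in CT26, 2.39 ± 0.246 TPM in CT26NYESO1, 20.6 ± 0.489 TPM in CMS5a and 22.5 ± 4.20 TPM in Renca (SD, n = 3 each). The lowest EMT6 library was far above the highest of the others at 26.0 TPM, and the log2 fold change was 5.25 (SE 0.19, limma adjusted p = 2.6e-11). Myl9, a regulatory light chain of myosin, followed the same order: 90.6, 60.8 and 96.8 TPM against 0.244 to 10.9 TPM (4.26, SE 0.19). Tropomyosin Tpm2 (2.31), caldesmon Cald1 (1.54) and filamin Flna (1.16) were also called higher. Vcl was called at 1.48 with an adjusted p just under the threshold, and the call was lost when any EMT6 library was left out and turned to -0.37 with the leukocyte covariate. Other parts of the smooth muscle programme were not raised: Tagln was at 1.05, 0.745 and 1.17 TPM and lower (-1.21), Des (-1.48) and the kinase Mylk (-1.18) were lower, and Myh11 and Lmod1 were at most 0.136 TPM in EMT6. The calls lower were 1 without Renca. Which cells carried Acta2 was not tested.

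Targets shared by YAP and SRF gave 3 calls higher of 7 tested and 0 lower. The matricellular genes Ccn1 and Ccn2 stood at 267, 292 and 279 TPM and at 153, 105 and 80.3 TPM, against 24.0 to 62.6 and 5.96 to 43.1 TPM. The groups did not overlap for either gene (2.98, SE 0.14, and 2.77, SE 0.22). Srf was called (1.10) and lost its call without Renca or with the leukocyte covariate, and Ankrd1 and Amotl2 were not called (0.36 and 0.87).

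Genes of transforming growth factor beta, activin and bone morphogenetic protein signalling were called higher in 12 of 19 tested and lower in 2 (median 1.21). The ligand Bmp4 stood at 40.9, 35.5 and 33.5 TPM in EMT6 and at no more than 0.606 TPM elsewhere (log2 fold change 4.96). It is in the count of 12 but entered the test only through EMT6. The ligand Bmp2 had the reverse order, with at most 0.115 TPM in EMT6 and about 10 TPM in CT26 and CT26NYESO1 (10.6 ± 1.65 and 10.0 ± 0.657 TPM; -1.75, SE 0.10). Tgfb3 was called higher (1.07), while Tgfb1 and Tgfb2 were not (-0.07 and 0.51). The matrix protein Tgfbi, a long-known target of the pathway, was at 302, 421 and 231 TPM against 41.8 to 130 TPM (2.09, SE 0.18). The feedback inhibitor Smad7 was at 28.6, 28.1 and 27.5 TPM against 3.78 to 12.7 TPM (1.78, SE 0.14), and Skil was higher (1.21). Id3, a target of bone morphogenetic proteins, was at 121, 93.4 and 97.0 TPM against 4.39 to 57.6 TPM (2.22, SE 0.25), whereas Id1 was not called (-0.17). The receptor Tgfbr2 was called higher (1.10), although CMS5a held more (135 ± 19.2 TPM against 77.7, 71.0 and 61.7). The secreted Fstl1 was at 4.02, 2.15 and 6.73 TPM against 8.86 to 424 TPM (-3.25, SE 0.26). With the leukocyte covariate 7 of the 19 were called higher.

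The basement membrane chains Col4a1 and Col4a2 were lower in EMT6 while several other collagens were higher, and over 16 tested genes 5 were called in each direction (8 higher and 5 lower without CMS5a). Col4a1 stood at 3.79, 2.82 and 1.79 TPM in EMT6 and at 50.5 to 97.3 TPM in the other 12 libraries. Col4a2, its partner chain, was at 2.66, 1.53 and 1.41 TPM against 28.2 to 68.9 TPM. Each EMT6 library lay far below every other library, in all 4 lines alike, and the log2 fold changes were -4.17 (SE 0.19) and -3.92 (SE 0.21). The genes start next to each other on chromosome 8 of mm10 in opposite directions (Col4a1 at chr8:11198423-11312826, minus strand, and Col4a2 at chr8:11312805-11449287, plus strand; GENCODE M21). Another chain of this type, Col4a5, was higher on average (1.93), with 21.5 TPM in EMT6, 34.5 and 21.7 TPM in CT26 and CT26NYESO1 and below 1 TPM in CMS5a and Renca (line means). Col15a1 (-2.32) and Col6a3 (-2.63) were lower without overlap too. The fibril-associated Col12a1 was at 123, 99.1 and 87.0 TPM, near 1 to 3 TPM in CT26, CT26NYESO1 and CMS5a, and at 61.8 ± 17.0 TPM in Renca (4.21, SE 0.23). Col5a3, Col7a1 and Col6a1 were called higher (2.0, 2.0 and 1.5) and overlapped CMS5a. The main fibrillar collagens Col1a1 (0.89), Col1a2 (0.96) and Col3a1 (0.61) were not called; Col3a1 was at 740, 474 and 444 TPM in EMT6 and at 2566 ± 397 TPM in CMS5a.

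Fibroblast matrix genes leaned lower, with 7 of 17 called lower and 3 higher. Dpt, which encodes dermatopontin, was at 0.722, 0.757 and 1.72 TPM against 4.93 to 329 TPM (-3.88, SE 0.23), and Lum at 3.20, 1.40 and 2.01 TPM against 4.92 to 122 TPM (-2.65, SE 0.37). Elastin Eln (-2.16), tenascin Tnc (-2.32) and biglycan Bgn (-1.37) were lower. The receptor of platelet-derived growth factor Pdgfra was higher on average (1.59), with EMT6 at 70.3, 56.4 and 55.0 TPM and CMS5a above it at 151 ± 38.2 TPM. Thrombospondin Thbs1 (2.46) was likewise shared with CMS5a. Without CMS5a, the fibrosarcoma, the counts were 5 higher and 4 lower. Among proteases, inhibitors and crosslinkers 6 of 17 were higher and 3 lower. Loxl2, a lysyl oxidase that crosslinks collagen, was at 26.7, 29.7 and 34.3 TPM against 0.994 to 9.24 TPM (3.27, SE 0.21). The urokinase Plau (1.62) was above all 12 other libraries. Tfpi, the inhibitor of tissue factor, was at 0.400, 0.551 and 0.323 TPM against 14.9 to 73.2 TPM (-4.69, SE 0.13), and Timp3 was lower in all 4 comparisons (-1.86).

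Genes of the epithelial-mesenchymal transition did not move as a group against the mean: 2 of 11 were called higher and 2 lower. The counts were 5 and 2 without CT26 and 1 and 4 without Renca. Against Renca alone 8 were called higher and 1 lower (median 1.85). They were 1 and 4 against CT26 (median -0.71), 2 and 4 against CT26NYESO1 and 1 and 3 against CMS5a. Twist2 stood at 0.0578, 0.146 and 0 TPM in EMT6 and at 26.1 to 59.9 TPM in the others (-5.16, SE 0.18, limma adjusted p = 1.5e-11), so this transcription factor was present in all 4 other lines and near 0 in EMT6. Its relative Twist1 was at 39.7, 28.4 and 27.4 TPM, within the range of 1.05 to 67.7 TPM, and was not called (0.67). N-cadherin, Cdh2, was at most 0.0146 TPM in EMT6, below 1 TPM in Renca, and at 30.1 to 35.8 TPM on average in CT26, CT26NYESO1 and CMS5a (-3.87, SE 0.12). Vim, the mesenchymal filament, was at 4113, 3696 and 3187 TPM, close to CT26 (4081 ± 814 TPM, SD, n = 3) and well above CMS5a and Renca, and was not called (0.95). Snai1 was called higher (1.37) and Snai2, Zeb1, Zeb2 and Prrx1 were not. Fn1 was called at 1.17 and lost the call without EMT6 replicate 1, CT26NYESO1 or Renca and with the leukocyte covariate.

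**Figure D4:**
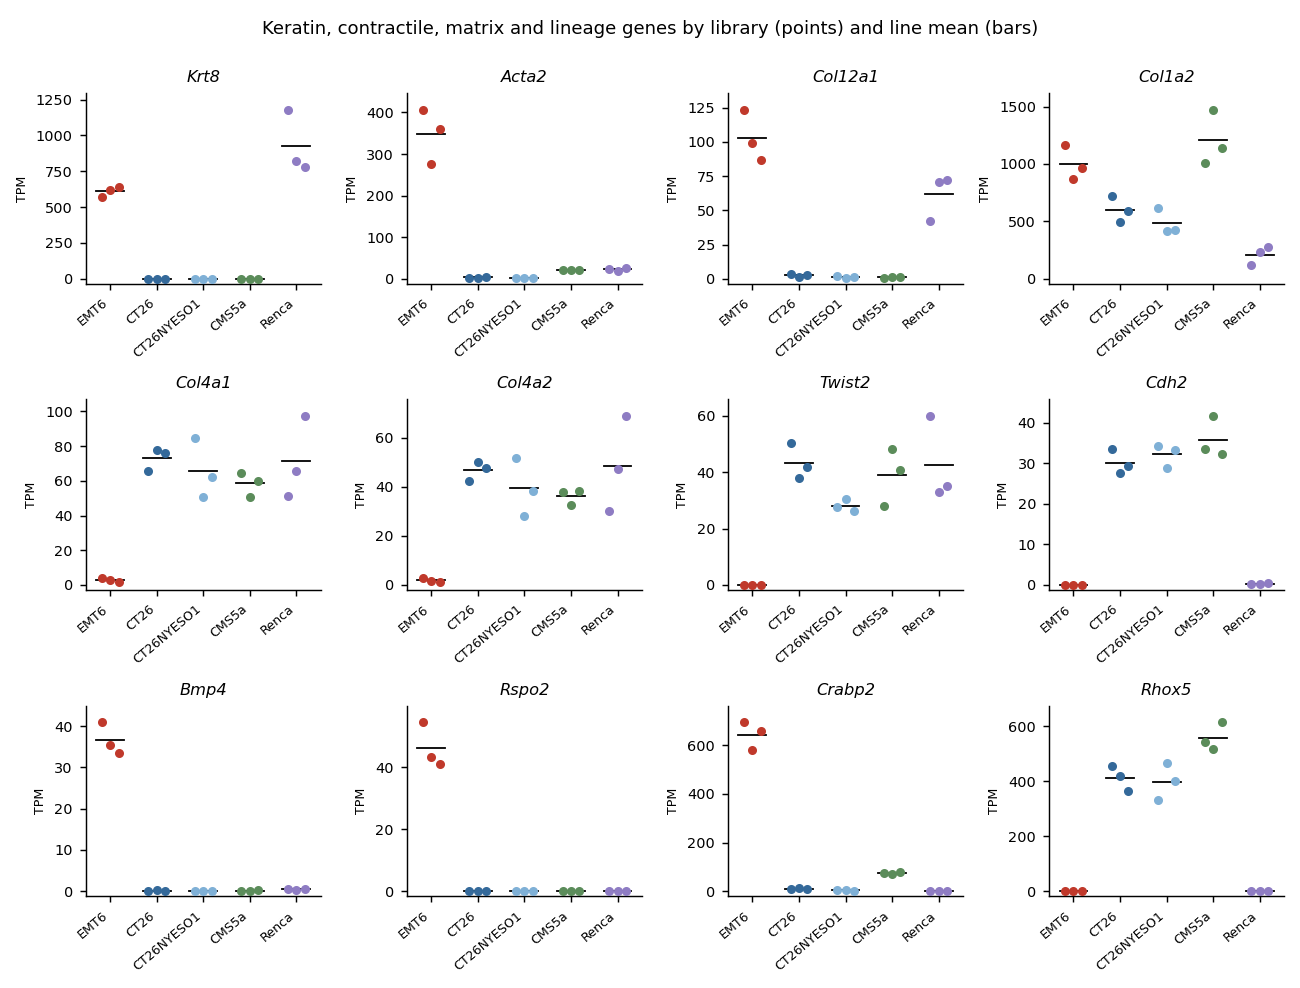
TPM (vertical axes, linear) of 12 keratin, contractile, matrix and lineage genes in the 15 libraries, with 3 points per line and a bar at the line mean. Krt8 is shared with Renca and Cdh2 is missing from both. Acta2, Bmp4, Rspo2 and Crabp2 are highest in EMT6, and Col4a1, Col4a2 and Twist2 are near 0 there and present in each other line.

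Among all genes, the largest rises without overlap included several genes that were close to 0 outside EMT6. Dynap, a membrane protein gene, stood at 359, 321 and 397 TPM against 0 to 11.0 TPM (6.59, SE 0.18). Serinc2 (6.31) and Arhgap8 (5.79) were at 81.0 to 127 and 60.9 to 72.7 TPM in EMT6 and at most 1.20 and 0.519 TPM elsewhere. Rspo2, a secreted amplifier of Wnt signalling, was at 54.5, 43.2 and 41.0 TPM in EMT6 and at most 0.0325 TPM in any other library (log2 fold change 5.54). The semaphorin Sema3c, a guidance cue, was at 107, 112 and 115 TPM (5.49), the secreted Cthrc1 at 250, 108 and 141 TPM (5.48) and the peptidylarginine deiminase Padi3 at 57.1, 78.6 and 74.2 TPM (5.40). Enpp2, or autotaxin, which makes lysophosphatidic acid, was at 121, 69.2 and 63.3 TPM against at most 3.79 TPM (5.20). Angpt1, a ligand of the endothelial receptor TIE2, was at 143, 120 and 142 TPM (5.19), and here CMS5a also held 77.0 ± 21.5 TPM. Syt13 (5.07) and the epoxide hydrolase Ephx2 (5.06) complete the 15 largest, with Adm, Acta2 and Bmp4 above and Crabp2 next.

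A retinoid binding protein stood out among the rises. Crabp2, which carries retinoic acid to its nuclear receptor, was at 693, 578 and 657 TPM in EMT6. CMS5a followed at 73.3 ± 4.35 TPM, and CT26, CT26NYESO1 and Renca held 11.1 ± 1.27, 3.74 ± 1.44 and 1.24 ± 0.303 TPM (SD, n = 3 each), which gave a log2 fold change of 6.04 (SE 0.15, limma adjusted p = 8e-13). The related Crabp1 was lower (-2.26). Over the list 2 of 14 tested genes were called higher and 3 lower, and the receptor Rarg and the enzymes Dhrs3 and Rdh10 were not called (0.46, 0.22 and -0.29).

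The largest falls were mostly genes that were present in all 4 other lines and near 0 in EMT6. Bcat1, the cytosolic aminotransferase of branched-chain amino acids, was at 0.190, 0.266 and 0.354 TPM in EMT6 and at 40.1 to 80.8 TPM elsewhere (-5.46, SE 0.09, limma adjusted p = 1.1e-14). Ppic, which encodes cyclophilin C, was at 2.02, 1.19 and 1.25 TPM against 30.3 to 229 TPM (-5.70, SE 0.11). Fam92a was at most 1.25 TPM against 36.7 to 59.8 TPM (-4.67). The sialomucin Cd34, known from blood stem cells and endothelium, was at 2.84, 2.51 and 3.60 TPM against 19.2 to 969 TPM (-5.66), with the highest levels in CT26 and CT26NYESO1. Esm1 (-5.20), Adgra2 (-4.83) and Dpysl3 (-4.63) had the same order, highest in CT26 and low but above EMT6 in Renca. Rhox5, an X-linked homeobox gene of testis and placenta that many mouse tumour lines express, was at 0, 0.606 and 0.232 TPM in EMT6. It stood at 413 ± 45.3, 399 ± 67.5 and 559 ± 49.6 TPM in CT26, CT26NYESO1 and CMS5a and at 2.49 ± 0.335 TPM in Renca (SD, n = 3 each; -6.73, SE 0.14). Rpl39l, a ribosomal protein gene of the germline, showed the same pattern (-6.07); its reads may be shared with copies of Rpl39. Over the oncofetal list 2 of 10 were called higher and 4 lower. Without Renca the counts were 0 and 4. The call of Hmga2 (1.05) turned to -0.69 with Renca left out; EMT6 at 86.9, 89.9 and 96.4 TPM lay between Renca, near 0, and CT26 at 244 ± 10.9 TPM.

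Few growth control genes were called against the mean of the 4 lines. Of 20 proliferation genes 0 were called higher and 1 lower, Mcm3 at -1.01, a call lost without EMT6 replicate 1 or without Renca; the median was -0.39. With the leukocyte covariate 4 of the 20 were called lower. Mki67 was at 20.8, 51.8 and 44.1 TPM against 20.4 to 102 TPM and was not called (-0.41). Among p53, inhibitor and cyclin genes 0 of 17 were called higher and 2 lower. Against single lines more of the 17 were called. The counts higher and lower were 2 and 3 for CT26, 1 and 2 for CT26NYESO1, 4 and 4 for CMS5a, and 7 and 4 for Renca. Ccnd2 was at 4.62, 9.22 and 9.57 TPM, below CT26, CT26NYESO1 and CMS5a and above Renca (-1.60). Cdkn2b was lower on average (-1.42) and lost the call without CMS5a or without Renca. Cdkn2a, the INK4a and ARF gene, was at 18.3, 7.97 and 10.0 TPM in EMT6, below 1 TPM in CT26 and CT26NYESO1, and at 107 ± 0.470 and 274 ± 40.5 TPM in CMS5a and Renca; it was not called (-0.30).

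T cell genes were lower on average, and the calls depended on a single library. Of 16 tested, 6 were called lower and 1 higher (median -0.73). Cd3e stood at 0.123, 2.37 and 2.14 TPM in EMT6 and at 0.892 to 14.9 TPM elsewhere (-1.17, SE 0.31, limma adjusted p = 0.0069). Cd4 was at 0.341, 1.42 and 1.31 TPM, below the lowest other library at 2.11 TPM (-1.18, SE 0.20). Without EMT6 replicate 1, 0 of the 16 were called lower; Cd3e was then at -0.65 (limma adjusted p = 0.08) and Cd4 at -0.91 (0.0029, under the fold threshold). The counts were 8 without EMT6 replicate 2 and 7 without replicate 3. With CT26NYESO1 left out, 2 were called lower, and with the leukocyte covariate 11. Against CT26NYESO1 alone 11 of the 16 were called lower, and against Renca alone 1 was. Tcf7 was the gene called higher (1.01), and 0 of the 16 were called higher without EMT6 replicate 1, CT26 or Renca, with median-ratio scaling or with the leukocyte covariate.

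Cytotoxic genes placed EMT6 between the other lines, with 2 of 16 called lower and 0 higher (3 higher and 0 lower without EMT6 replicate 1, 4 and 0 without CT26, 0 and 5 without Renca, 0 and 7 with the leukocyte covariate). Gzma was at 2.69, 11.8 and 14.2 TPM in EMT6, at 102 ± 63.5 TPM in CT26 and at 3.68 ± 0.954 TPM in Renca (-1.56), and Nkg7 was called at -1.14. Both calls were lost without EMT6 replicate 1 or without CT26. Gzmb (-0.04), Prf1 (-0.83), Cd8a (-0.39) and Ifng (0.08) were not called; Cd8a was at 0.134, 4.37 and 4.09 TPM. Of the 16 genes, 10 were called lower against CT26 and 9 against CT26NYESO1, while 5 were called higher against CMS5a and 6 against Renca. The NK receptor Ncr1 was at 1.06, 2.77 and 2.68 TPM against 0.177 to 19.7 TPM (-1.25), the 1 NK gene of 8 called, and this call was lost without EMT6 replicate 1, CT26 or CT26NYESO1. Of 7 inhibitory receptors 2 were called higher. Havcr2, which encodes TIM-3 and is also found on myeloid cells, was higher at 22.7, 30.1 and 20.5 TPM against 1.86 to 9.46 TPM (2.09, SE 0.22), and Vsir, or VISTA, was called at 1.14 and lost the call with the leukocyte covariate. Pdcd1, Lag3 and Ctla4 were not called (-0.15, -0.05 and -0.06), nor was Foxp3 (-0.41). Regulatory T cell genes gave 1 call higher of 6.

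B cell genes were called lower in 3 of 7 tested and higher in 0 (median -0.89). Without EMT6 replicate 1 the count lower was 2, and without CMS5a it was 1. Cd79a was at 0.337, 1.04 and 0.188 TPM against 0.803 to 14.9 TPM (-1.67, SE 0.22), and the difference was largest against CMS5a (12.4 ± 2.18 TPM, SD, n = 3). Conventional dendritic cell genes were called lower in 3 of 9 and plasmacytoid ones in 2 of 6, Cd209a and Siglech among them (-1.15 and -1.10, both lost without EMT6 replicate 1). Plasma cell genes gave 1 call lower of 6, mature dendritic cell genes 0 calls of 4 and eosinophil genes 1 call lower of 2. Mast cell and basophil genes gave 2 calls higher of 12, and 5 without EMT6 replicate 1; Mcpt2 was at 1.06, 24.0 and 15.5 TPM.

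Macrophage and monocyte genes were mixed. Macrophage genes gave 3 calls higher and 2 lower of 16, and monocyte genes 4 higher and 1 lower of 10. The integrin Itgam, shared by neutrophils and monocytes, was at 126, 155 and 97.5 TPM against 15.3 to 70.6 TPM (1.66, SE 0.26), and with the leukocyte covariate it was no longer called (0.60, limma adjusted p = 0.079). Adgre1, which encodes F4/80, was not called (0.78), nor were C1qa (0.56), Spp1 (0.62) and Ly6c2 (0.42). The scavenger receptor Cd163 was lower (-1.20), and Gpnmb was lower in all comparisons except that with CT26NYESO1 (-3.02), being at 866 ± 206 TPM in Renca. Plac8 was lower (-1.52). Proteoglycan Vcan was higher on average (2.47) and shared with CMS5a (101 ± 38.2 TPM).

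Interferon response genes gave 4 calls higher of 21 and 0 lower against the mean of the lines (median 0.38). With the leukocyte covariate 2 were called higher and 4 lower, and the median was -0.39. Against Renca alone 16 were called higher. The guanylate-binding Gbp2 was at 278, 466 and 596 TPM against 8.31 to 528 TPM (2.19, SE 0.42), and with that covariate it was not called (0.63, limma adjusted p = 0.31). In MHC class I presentation 2 of 11 were called higher, the immunoproteasome genes Psmb8 (1.53) and Psmb10 (1.05), and H2-K1 and Tap1 were not called (-0.43 and -0.03). MHC class II genes gave 1 call higher of 11, the protease Ctss (1.13); H2-Aa was at 29.9 TPM in EMT6 replicate 1 and at 317 and 302 TPM in the other two, inside the range of 67.2 to 679 TPM apart from that library, and was not called (-0.84). Over the 11 MHC class II genes the median was -0.69, and without EMT6 replicate 1 it was 0.32. With the leukocyte covariate Psmb8, Psmb10 and Ctss were no longer called.

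Endothelial genes were lower in 8 of 11 tested and higher in 0, with a median log2 fold change of -1.40, and every call against a single line was against CMS5a or Renca. Without CMS5a 5 were called lower. Their summed level was 18.1 to 27.6 TPM in EMT6, 17.5 to 40.2 TPM in CT26, 22.6 to 23.7 TPM in CT26NYESO1, 208 to 259 TPM in CMS5a and 213 to 314 TPM in Renca. Cdh5, the cadherin of vessel walls, was at 2.08, 1.53 and 0.720 TPM in EMT6 and at 3.17 ± 2.12, 2.19 ± 0.342, 42.0 ± 3.90 and 17.6 ± 6.35 TPM in CT26, CT26NYESO1, CMS5a and Renca (SD, n = 3 each; -2.04, SE 0.28). Plvap (-2.27), Esam (-2.45) and Emcn (-1.87) had the same order. Of the 11 genes 0 were called against CT26 or CT26NYESO1, and 10 were called lower against each of CMS5a and Renca. Vegfa and Angpt1, both angiogenic ligands, were higher in EMT6 as given above. Red cell genes gave 0 calls of 6, none of the 6 melanocyte genes reached the level for a test, and of 4 renal genes 1 was called higher and 2 lower. The fatty acid carrier Fabp4 was the 1 of 6 muscle and fat genes called, at 5.33, 5.03 and 5.77 TPM against 8.82 to 1817 TPM (-3.28), with CMS5a far above the rest.

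**Figure D5:**
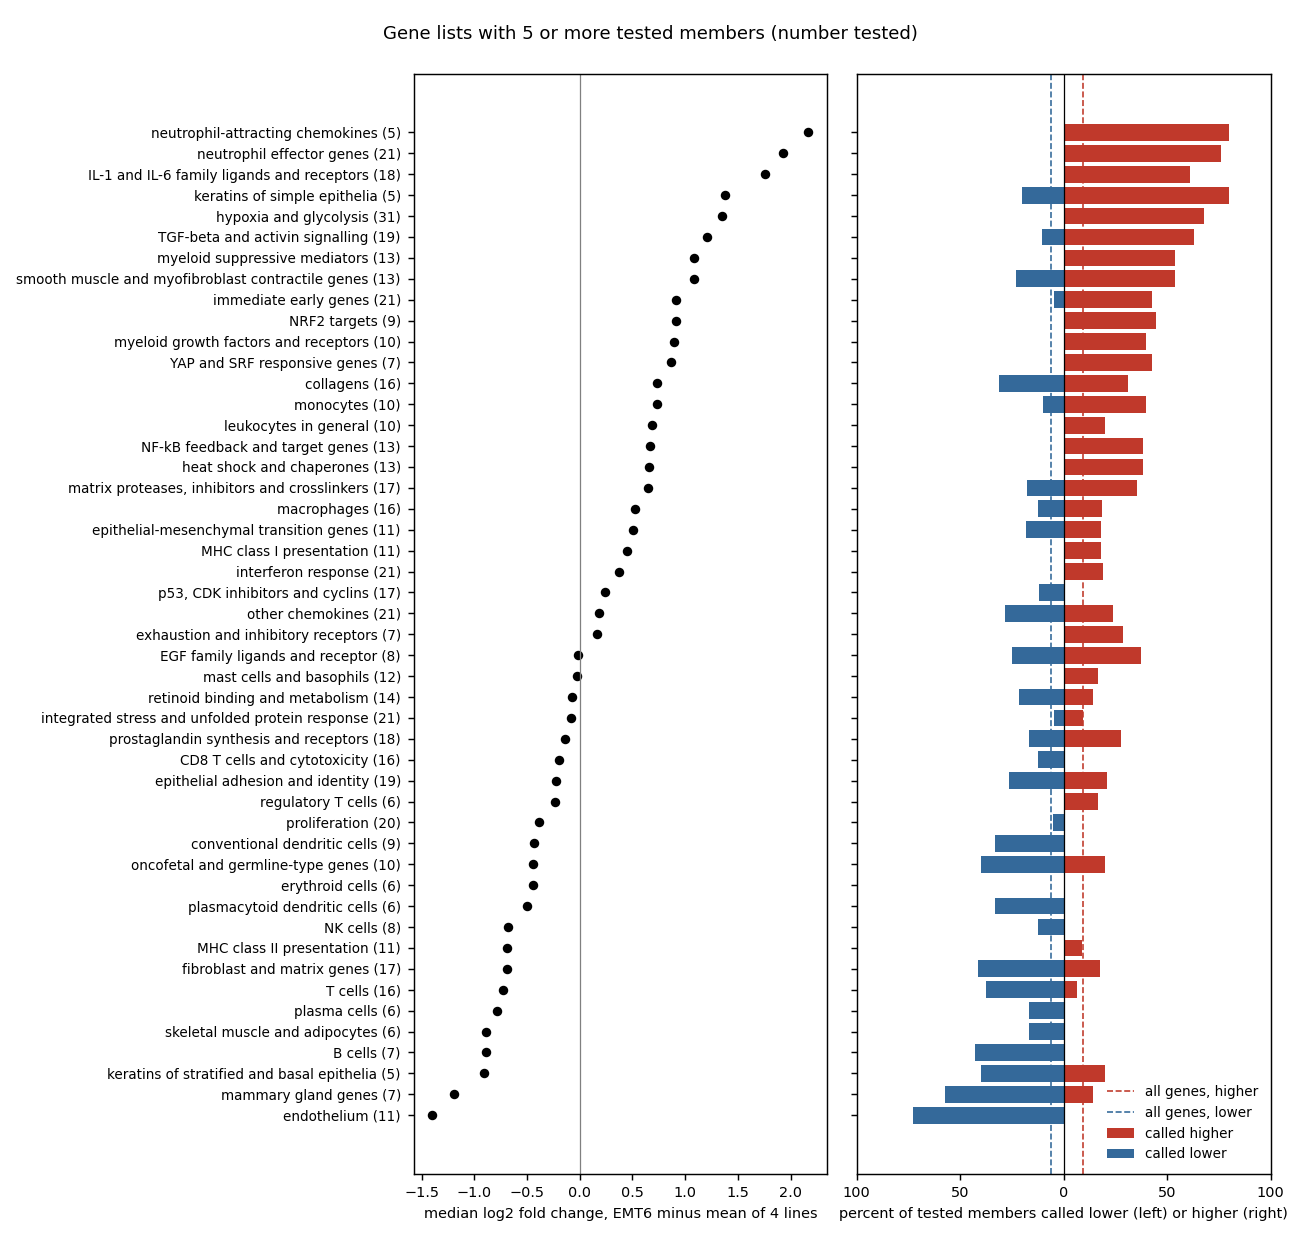
Gene lists with at least 5 tested members (number tested in brackets). Left, the median log2 fold change of EMT6 minus the mean of the 4 lines; right, the percentage of tested members called lower (blue, to the left) or higher (red, to the right), with dashed lines at the 9.18% and 6.27% of all genes. Neutrophil chemokines, neutrophil effector genes, interleukin-1 and interleukin-6 family genes and hypoxia genes lie at the top, and endothelial genes at the bottom.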

How the data were processed

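RNA of 15 libraries (3 each of EMT6, CT26, CT26NYESO1, CMS5a and Renca) was analysed from 1 table of TPM that the authors deposited, with 0 columns left unmapped. Per the labels, libraries were stranded mRNA libraries from total RNA. Per the submitters' processing notes, Trim Galore 0.6.5, STAR 2.7.3a, StringTie 2.1.2 and mm10 were used; their settings, the annotation and the use of strand are not given in the sources used here. Here log2(TPM + 1) of 16345 genes with at least 1 TPM in 3 libraries was fitted with limma 3.58.1 (R 4.3.3; a mean per line, trended moderation, 10 residual degrees of freedom, Benjamini-Hochberg adjustment over all genes), after a check on simulated data. Calls needed an adjusted p under 0.05 and a difference of 1 log2 unit or more. Alternatives changed the pseudocount, filter, scaling, fold threshold, covariate, unit, libraries or lines. Named genes were the 15 largest rises and 12 largest falls without overlap (predicted genes and pseudogenes left out) and up to 5 called members per list; further genes were chosen after their values were seen. The comparison and lists were chosen with earlier results of these data known. Gene positions came from GENCODE M21, windows from RefSeq GRCm38.p6. Some genes of the lists are not reported here.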

Additional observations from a re-analysis of the deposited data

How the results depend on the processing

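Leaving out 1 EMT6 library or 1 replicate number gave 1295 to 1416 genes higher and 896 to 1088 lower than the mean of the 4 lines. The same ranges were 1233 to 1597 and 1084 to 1493 against CT26, 1413 to 1666 and 1010 to 1250 against CT26NYESO1, 1403 to 1687 and 1252 to 1650 against CMS5a, and 2515 to 2963 and 1698 to 2197 against Renca. Without a fold threshold the counts higher and lower were 4020 and 3838 against the mean, 3495 and 2887 against CT26, 3469 and 2823 against CT26NYESO1, 3490 and 3537 against CMS5a, and 5477 and 3921 against Renca. Line means as units gave 0 and 0, and the fold threshold with groups that do not overlap, in place of the adjusted p, gave 971 and 388. A pseudocount of 0.1 raised the lower counts to 2023 (mean) and 1747 (CT26NYESO1) and took the share of calls that were higher from 59.4% to 49.3%. The leukocyte covariate gave lower counts of 1765 (mean), 2404 (CT26) and 2136 (CT26NYESO1), a higher count of 1671 (Renca), and a share higher of 39.6%, 35.8%, 39.2%, 44.1% and 37.6% against the mean, CT26, CT26NYESO1, CMS5a and Renca. Vcl turned to -0.37 with this covariate, and Hmga2 to -0.69 with Renca left out. Ptprc turned to -0.72 with the covariate, but it is itself a gene of the score, so this value is not a result. The cause of the other changes was not tested. Of 234 named genes, 9 lost their call with median-ratio scaling, 2 with a pseudocount of 0.1, 20, 10 and 4 without EMT6 replicate 1, 2 and 3, and 35 with the leukocyte covariate, besides Vcl; 11 that reached 1 TPM in EMT6 alone were not tested when an EMT6 library was left out. Replicate numbers did not pair the libraries (median correlation of same-numbered deviations -0.06 over 30 pairs, 8 over 0.1), and only 3 of 15 libraries correlated best with their own number. With a replicate block 1496 genes were higher and 1025 lower than the mean, and 2 named genes lost their call. Depth is unknown, so counting error could not be given.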

Other observations

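The families below were chosen after their values were seen, and the counts are descriptions. Hox genes, the clustered homeobox genes that hold positional identity, were mostly lower in EMT6: 31 of 39 were tested, 20 were called lower, beside 6.27% of all genes, with a median log2 fold change of -1.41. In 15 of the 31 tested, all 3 EMT6 libraries lay below all 12 others, beside 5.05% of all genes. Hoxa9 stood at 0.274, 0.608 and 0.282 TPM in EMT6 and at 9.71 to 31.0 TPM elsewhere (-3.87, SE 0.12, limma adjusted p = 5.2e-12). Hoxd8 was at no more than 0.255 TPM against 6.19 to 39.6 TPM (-3.67, SE 0.14). Both were present in each of the other 4 lines. For Hoxb7, Hoxb9, Hoxc10 and Hoxd9 the difference lay against CMS5a and Renca, since CT26 and CT26NYESO1 held below 1 TPM as well.

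Wnt ligands leaned the other way, beside the Rspo2 level given above: 7 of 19 were tested, 6 were called higher and 0 lower. Wnt10b was at 24.4, 26.2 and 32.4 TPM against 0.246 to 6.20 TPM (3.04, SE 0.17), and Wnt7b at 19.8, 17.4 and 20.0 TPM against 0 to 9.74 TPM (3.0, SE 0.11). Wnt11 (1.89) and Wnt5b (1.28) also lay above all 12 other libraries, at low levels; like Sema3e below, they entered the test only through EMT6. Wnt10a was called at 1.03, stood at 60.4 ± 3.11 TPM in CT26 (SD, n = 3), above EMT6, and lost its call without EMT6 replicate 1, CMS5a or Renca. Among 18 tested semaphorins 7 were called higher and 2 lower. Sema3e was at 5.27, 5.64 and 6.15 TPM against at most 0.510 TPM (2.50), and Sema3a was at 160, 232 and 269 TPM, close to CT26 (182 ± 37.5 TPM) and far above Renca, near 0 (2.7, SE 0.17).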
